A study of Mus musculus with 10 samples.

Results

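Of the 68452 DNase I hypersensitive (DHS) sites of ordinary width, 400 to 800 bp, 312 held 10 or more footprints and are called packed sites here. They were 0.456% of the sites of that width, which were themselves part of 129028 sites in all, and they carried 3363 of 329076 footprints. Among sites of any width, 7.88% held 10 or more. A footprint belonged to each site with which it shared 1 bp or more. The packed sites were chosen by 2 measured values, the width of the site and its number of footprints, so that number and the crowding that follows from it are given as a description and support nothing. The set they are compared with, called sparse sites, comprised the 25222 sites of the same width range with 1 to 4 footprints. Another 6817 sites held 5 to 9 footprints and 36101 held none.

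The sites come from 3T3-L1 cells, a clonal mouse preadipocyte line, harvested 4 h after differentiation was induced with 1 µM dexamethasone (a glucocorticoid), 0.5 mM 3-isobutyl-1-methylxanthine (an inhibitor of cyclic AMP breakdown), 1 µg/mL insulin and 10% fetal calf serum. Both DNase samples, 1 read from single ends and 1 from paired ends, were further sequencing of 1 library, and the authors pooled them with earlier reads of that library before calling. There was thus no replicate, no group without induction, and no test of any difference given below. Signs counted over chromosomes show spread within this library and not between cultures. The other 8 samples are RNA libraries in 4 groups of 2, cells with an shRNA against C/EBPβ or a scrambled shRNA, each at 4 h and at 0 h, and were not analysed here.

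DNase I cuts DNA where nucleosomes have been displaced, and a protein bound to that DNA shields a short stretch from the enzyme, which leaves a footprint of few cuts inside an open region. Enhancers are usually occupied by several transcription factors side by side, and sites where many factors meet are known as hotspots. Early in adipogenesis such sites are bound by C/EBPβ together with the glucocorticoid receptor, Stat5 and AP-1 factors, among others. The footprint list names no factor, and a footprint may belong to a monomer, a dimer or a larger complex. Sequences of the sites are not shown and genes beside them are not named, since a genome or annotation of the mm9 build was not used here.

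Most packed sites were only just packed, and most were near the upper limit of width. Exactly 10 footprints were found in 171 of them (54.8%), 11 in 85, 12 in 29, 13 in 16, 14 in 5, 15 in 4 and 16 in 2. Their median width was 759.5 bp (interquartile range 710 to 783 bp), against 605 bp in sparse sites. In all, 176 (56.4%) were 750 to 800 bp wide and 13 were under 600 bp. The share of sites with 10 or more footprints was 0.222% at 600 to 649 bp and 4.16% at 750 to 800 bp. Just outside the limit, at 801 to 850 bp, it was 7.80%. Just below the limit of number, the 351 sites with 9 footprints had a median width of 741 bp and a median score of -4.64, against 754 bp and -4.76 in the 171 sites with 10. The number also rested on how finely footprints were separated, since merging those 2 bp or less apart left 165 of the 312 sites with 10 or more. The packed sites were thus the upper end of a continuous range and not a group set apart by these values.

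Protected DNA made up a median of 26.2% of a packed site, against 7.09% of a sparse site. Density was 14.1 footprints per kb at the median and ran from 12.5 to 27.6. The site with the most footprints lay on chromosome 10 from 117184323 to 117185082 (all coordinates mm9, counted from 1). Its 16 footprints in 760 bp began 16 bp from the left edge and ended 86 bp from the right one. From left to right they were 8, 8, 15, 17, 10, 22, 11, 23, 27, 16, 17, 20, 27, 18, 15 and 11 bp wide. The gaps between them ranged from 2 to 61 bp. Widths near both ends of the callable range of 8 to 30 bp therefore lay within 1 site.

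The other site with 16 footprints, on chromosome 10 from 117197273 to 117197981, had a gap of 131 bp across its centre. It held 5 footprints to the left of that gap and 11 to the right of it. Of the 10 sites with the most footprints, 7 lay on chromosome 10. Ties were broken by the summed score, and of all 11 sites with 14 or more footprints, 8 lay on chromosome 10. All 8 were between 116 and 118 Mb. Chromosome 10 held 52 of the 312 packed sites (16.7%). The remaining 3 of the 10 were on chromosome 13 from 16807178 to 16807963 (15 footprints), on chromosome 5 from 101289431 to 101290226 (14) and on chromosome 16 from 23106087 to 23106779 (14). These 3 differed in layout from the 7. The chromosome 13 site carried its 15 footprints in a stretch of 381 bp, with 219 bp free on the left and 186 bp free on the right, and its longest gap was 27 bp. The chromosome 5 site likewise left 248 and 141 bp free, and the chromosome 16 site 150 and 147 bp.

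**Figure D1:**
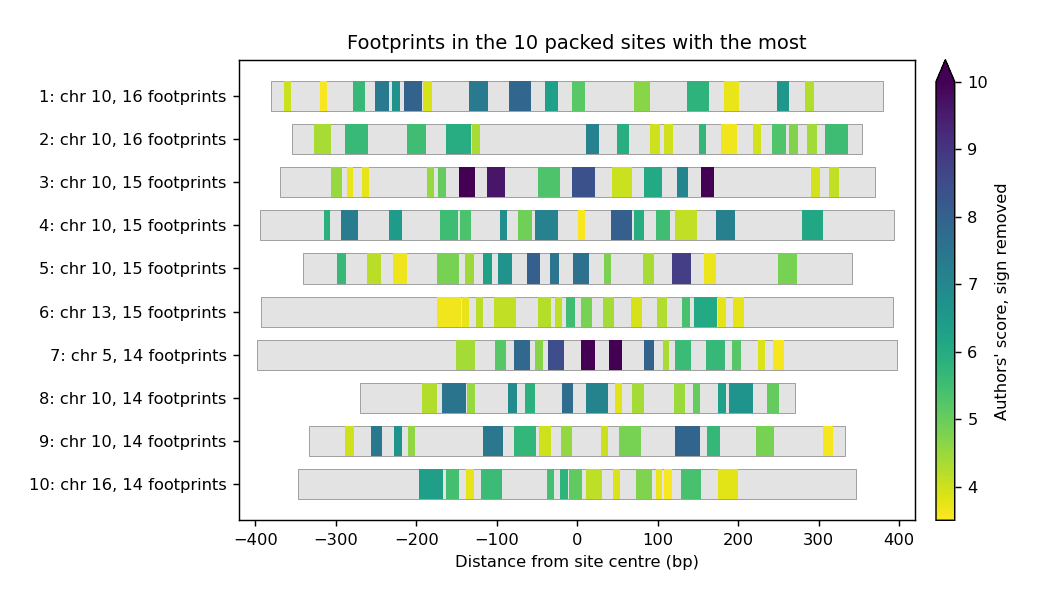
Map of the 10 packed sites with the most footprints, to scale. Grey bars are the sites, coloured blocks are footprints, the horizontal axis is the distance from the site's centre in bp, and colour gives the authors' score with its sign removed (darker is more negative, values past 10 share the darkest shade). In the 7 chromosome 10 sites footprints run to within 15 to 88 bp of each edge, whereas in the chromosome 13, 5 and 16 sites they lie in a central stretch with free flanks of 141 to 248 bp.

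Footprints in packed sites were short. Their median width was 17 bp (interquartile range 11 to 25 bp, 3363 footprints), against 25 bp (18 to 29 bp, 52283 footprints) in sparse sites. Footprints of 8 to 14 bp were 39.3% of those in packed sites and 16.4% of those in sparse sites. Footprints of 30 bp, the longest the list allows, were 6.96% in packed sites and 21.6% in sparse ones. No footprint of 30 bp was present in 145 packed sites, 112 had 1 and 55 had 2 or more. The median was lower in packed sites on 20 of 20 chromosomes, with a mean difference of -7.18 ± 1.68 bp (SD over 20 chromosomes of 1 library). Weighting the sparse sites to the widths of the packed sites, in classes of 50 bp, gave 17 against 24 bp. Short footprints leave room for more of them within 800 bp, so their width is not independent of the choice of sites.

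The deposited score was more negative in packed sites. It is the authors' own value per footprint and is below 0 in every one. No source used here gives its scale, so differences in it have no unit and were read only within the list, with more negative taken as stronger. The median finite score was -4.75 (interquartile range -5.99 to -4.06) in packed sites, against -3.96 (-4.38 to -3.72) in sparse sites, and the highest value in the list is -3.54. The packed median was more negative on 20 of 20 chromosomes, with a mean difference of -0.87 ± 0.23 (SD over 20 chromosomes). Only footprints scoring -3.54 or below are listed, so the number of footprints in a site and their scores need not be independent. Choosing sites by number may therefore bear on score. The difference was present at every width class. Among footprints of 8 to 14 bp the medians were -4.45 in packed and -3.86 in sparse sites, among those of 15 to 22 bp -4.88 in packed and -3.91 in sparse, among those of 23 to 29 bp -5.20 in packed and -4.01 in sparse, and among those of 30 bp -5.18 in packed and -4.02 in sparse. Packed sites lay on a continuous slope. The median score became more negative with each added footprint up to 10. It was -3.82 in sites with 1 footprint, -4.25 with 5 and -4.76 with 10. With 11, 12, 13, 14, 15 and 16 footprints it was -4.71, -4.74, -4.93, -4.90, -4.97 and -5.40. The last of these values rests on 2 sites. The lists carry no count of cuts, so the depth behind a site is unknown.

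A score of -Inf was given to 0 of 3363 footprints in packed sites, which allows a share of up to 0.0892%. That limit covers counting error only and treats footprints as independent. In sparse sites -Inf was given to 207 of 52283 (0.396%). Ranked with the others, -Inf would be the most negative score. The finite medians leave such footprints out, and their shares ran opposite to those medians.

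**Figure D2:**
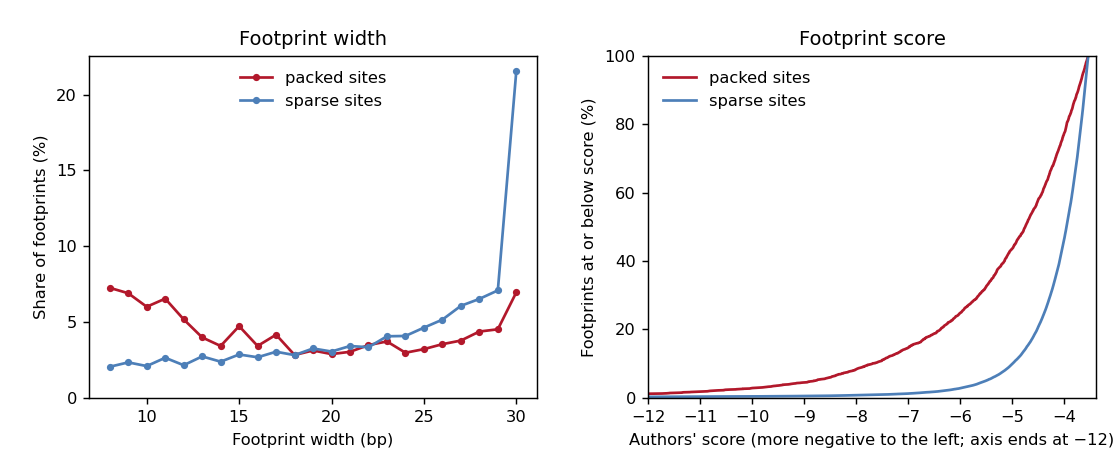
Left, the share of footprints (%) at each width in bp. Right, the share of footprints (%) with a finite score at or below each value, drawn from -12 upward. Packed sites are red and sparse sites blue. Packed sites have more footprints of 8 to 14 bp and a smaller peak at 30 bp, and their scores extend further to negative values.

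Packed sites differed widely in how strong their footprints were. The median score of a site ran from -32.2 to -3.80, with an interquartile range of -5.37 to -4.37 over the 312 sites, and 10 sites were below -7. The strongest median belonged to a site on chromosome 12 from 98299481 to 98300203. Its 11 footprints were 27, 10, 9, 8, 12, 29, 17, 8, 10, 17 and 19 bp wide from left to right. Their scores in that order were -67.5, -38.2, -33.0, -50.8, -32.0, -96.8, -21.9, -27.5, -21.0, -27.7 and -32.2. Even the weakest of these, -21.0, was far below the packed median of -4.75.

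The next strongest medians were -15.5 on chromosome 19 from 13129029 to 13129815, -12.3 on chromosome 2 from 77179680 to 77180474, -11.6 on chromosome 7 from 128060849 to 128061621 and -8.26 on chromosome 7 from 119967097 to 119967867. The 2 packed sites with the strongest medians were also the 2 farthest from any other DHS site, at 134418 bp on chromosome 12 and 60966 bp on chromosome 19, a coincidence seen only after the values were known. In both, the nearest site held no footprint.

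At the other end, the 5 weakest medians, -3.80 to -3.93, were on chromosome 7 from 87285524 to 87286213, chromosome 5 from 32466306 to 32467024, chromosome 17 from 46390372 to 46391145, chromosome 11 from 32270529 to 32271257 and chromosome 14 from 48578958 to 48579717. These sites held 10 to 12 footprints each, so a high number did not require strong scores. Within the range of number that the rule leaves, with 171 of 312 sites at exactly 10, number and median score were hardly related (Spearman rho -0.02, Pearson r -0.05), and sites with more footprints had slightly shorter ones (Spearman rho -0.16, Pearson r -0.17, against the median width per site).

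Neighbouring footprints lay close together, which the rule requires. The median gap was 13 bp (interquartile range 6 to 24 bp, 3051 gaps) in packed sites, against 29 bp (15 to 63 bp, 27061 gaps) in sparse sites with 2 or more footprints. Gaps under 10 bp were 36.7% of those in packed and 15.9% of those in sparse sites. From centre to centre, the step between neighbours was 30.5 bp at the median in packed sites and 53 bp in sparse ones, and 1524 of 3051 steps in packed sites were at least 16 and under 32 bp, against 20.3% in sparse sites. The longest gap inside a packed site was 47 bp at the median and ranged from 13 to 163 bp. A stretch of 60 bp or more without a footprint was present in 108 packed sites (34.6%), and the others were lined with footprints at shorter intervals from the first to the last.

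The row of footprints spanned a median of 363 bp in packed sites and 73 bp in sparse sites. On both sides of it most packed sites kept a flank free of footprints, 199.5 bp on the left and 186 bp on the right at the median. On a scale from 0 at the centre of the site to 1 at its edge, footprints lay at 0.285 on average in packed sites and at 0.230 in sparse sites. It was larger in packed sites on 20 of 20 chromosomes, by 0.0348 ± 0.0357 on average (SD over 20 chromosomes), and a longer row reaches farther out by construction. Chromosome 10 stood apart, with 0.385 in packed sites against 0.227 in sparse ones. Without the 5 megabases described in the account of the genome positions, the averages were 0.256 in packed and 0.229 in sparse sites.

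Footprints near the centre had the more negative scores. With that scale cut into steps of 0.25, the median in packed sites was -5.15 in the innermost step, -4.56 in the next, -4.25 in the third and -4.36 in the outermost, where 83 of 98 footprints came from those same 5 megabases. In sparse sites the medians, in the same order, were -4.01, -3.92, -3.83 and -3.78. Innermost footprints of packed sites outside those megabases were 16 bp wide at the median and outermost ones 26 bp, while in the megabases the medians were 16 and 14 bp. In sparse sites they were 24 bp in the innermost step and 28 bp in the outermost.

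Packed sites were unevenly spread over the genome. They occurred in 228 megabases (intervals of 1 Mb) on 20 chromosomes and were alone in 189 of these, while 5 megabases held 51 of them (16.3%) and 0.365% of the sites of 400 to 800 bp. The most, 22, lay on chromosome 10 between 117 and 118 Mb, where 34.4% of the 64 sites of this width were packed. The adjoining megabase, 116 to 117 Mb, held 13 of 45 (28.9%), so that the pair contributed 35 of the 52 packed sites on chromosome 10. Next came chromosome 11 between 3 and 4 Mb with 6 of 47, chromosome 2 between 77 and 78 Mb with 5 of 54 and chromosome 7 between 29 and 30 Mb with 5 of 40. These megabases were picked for their number of packed sites, and 81.0 to 92.4% of the DHS sites of any width in each held a footprint, against 45.4% of all 129028 sites. Copy number and read depth at these megabases were not analysed here.

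By chromosome, packed sites were 1.53% of the sites of 400 to 800 bp on chromosome 10 (95% Wilson interval 1.17 to 1.99%, counting error only), 0.801% on chromosome 8 and 0.782% on chromosome 19. The median over the 20 chromosomes with 100 or more sites of this width was 0.340%, which leaves out chromosome Y with 2 such sites, 0 of them packed. The lowest shares among the 20 were 0.153% on chromosome X and 0.163% on chromosome 9. Without the 5 megabases chromosome 10 had 0.515%, below chromosomes 8, 19, 6 and 5. Its lead rested on the pair of megabases around 117 Mb.

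**Figure D3:**
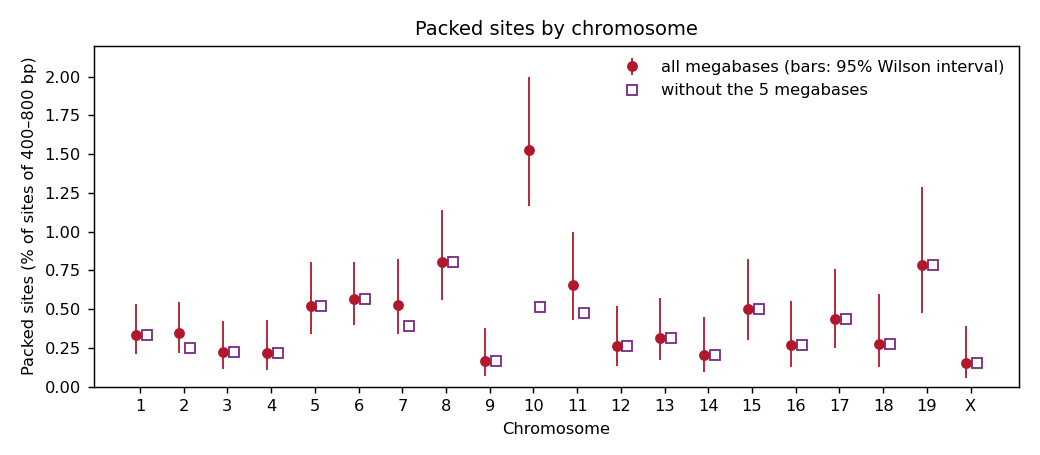
Packed sites as a percentage of sites of 400 to 800 bp on each chromosome. Red points are all megabases, with bars for the 95% Wilson interval, and open squares leave out the 5 megabases with the most packed sites. Chromosome 10 is highest at 1.53% with them and falls to 0.515% without them.

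Taken as a pool, the packed sites of the 5 megabases were laid out differently from the 261 packed sites elsewhere, though those of the chromosome 7 megabase were closer to packed sites elsewhere in width and flank. The pooled sites were narrower, 646 bp at the median against 764 bp, and held 11 footprints at the median against 10. Their footprints reached close to the site's edges. The shorter of the 2 free flanks was 39 bp at the median (interquartile range 20 to 65.5 bp), against 170 bp (141 to 203 bp) in packed sites elsewhere. It was under 60 bp in 35 of 51 sites in the 5 megabases, against 7 of 261 elsewhere. By megabase it was under 60 bp in 15 of 22 and 10 of 13 on chromosome 10, 6 of 6 on chromosome 11, 3 of 5 on chromosome 2 and 1 of 5 on chromosome 7. The chromosome 7 sites had a median shorter flank of 107 bp and a median width of 761 bp. The limit of 60 bp was chosen after the values were seen.

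In the 5 megabases 83 of 593 footprints of packed sites lay beyond 0.75 of the way to the edge, against 15 of 2770 (0.542%) elsewhere. Their gaps were wider, 18 bp at the median against 12 bp, and a stretch of 60 bp or more without a footprint occurred in 74.5% of these sites against 26.8%. Footprint widths were 15 and 17 bp at the median, and median scores were -4.67 and -4.78. By megabase the median width was 15 bp in both on chromosome 10 and on chromosome 7, but 18 bp on chromosome 11 and 19 bp on chromosome 2. Median scores by megabase ran from -4.46 on chromosome 10 (116 to 117 Mb) to -4.90 on chromosome 7. The chromosome 11 site from 3086441 to 3086911 shows the layout that reaches close to the edges. Its 13 footprints filled 50.5% of 471 bp, the largest share of any packed site, and left 39 and 20 bp free at the ends. The other sites with the largest shares were 3 on chromosome 10, with 39.2 to 41.6%, and 1 on chromosome 5 from 106297518 to 106298180, with 37.9%.

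The 64 sparse sites of the same 5 megabases also had their footprints farther out than sparse sites as a whole. Their footprints lay at 0.312 on average, against 0.230 over all sparse sites, and the shorter flank was 166.5 bp at the median, against 202 bp. These sites were not chosen for many footprints, but the megabases were.

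**Figure D4:**
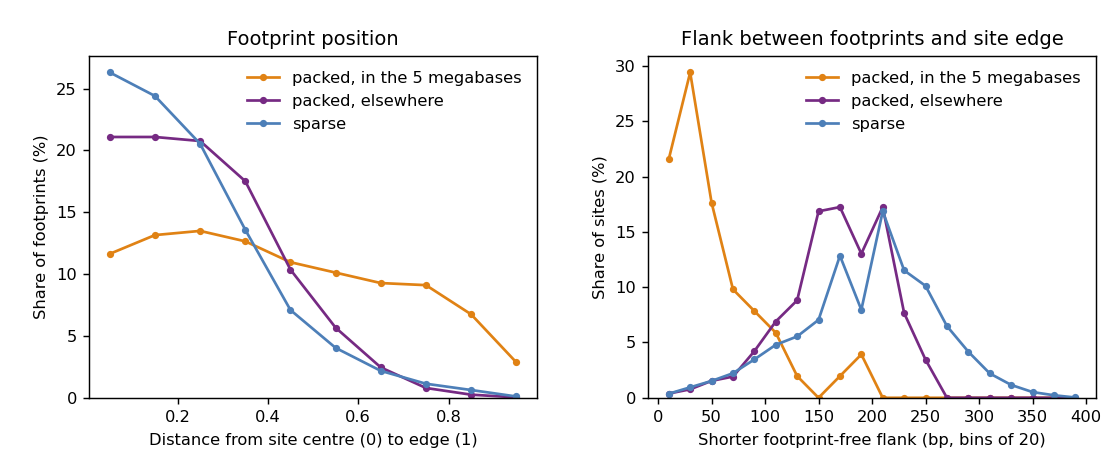
Left, the share of footprints (%) by distance from the site's centre (0) to its edge (1), in steps of 0.1. Right, the share of sites (%) by the length of the shorter footprint-free flank, in bins of 20 bp. Orange is packed sites in the 5 megabases, purple packed sites elsewhere and blue sparse sites. The orange flanks have a median of 39 bp and the purple ones 170 bp.

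The rule looked at each site by itself, so the footprints of its neighbour are a measure that it did not use, except where the neighbour was packed too, as for 10 of 312. The nearest other DHS site to a packed site held 8.11 footprints on average (SD 11.2, median 5, 312 sites), against 3.77 (SD 5.65, median 2) for sparse sites. It held 10 or more in 87 of 312 packed sites (27.9%), against 12.1% of sparse sites and 8.06% of all sites of 400 to 800 bp. It held none beside 46 packed sites (14.7%), against 35.0% of sparse sites. With sites whose nearest site was packed left out of both sets, the means were 7.97 over 302 packed sites and 3.76 over 25151 sparse sites, and 77 packed sites (25.5%) had 10 or more beside them, against 11.8% of sparse sites. The mean with all sites was higher for packed sites on 17 of 20 chromosomes. Chromosomes 4, 17 and X went the other way, with 3.00, 4.00 and 1.75 for packed sites against 3.72, 4.23 and 2.41 for sparse ones.

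The nearest sites of packed sites were wider, 680.5 bp at the median against 620 bp, and a wide site holds more footprints. From width alone, 4.51 footprints per nearest site would be predicted for packed sites and 3.46 for sparse ones. The observed number was 1.80 times the prediction beside packed sites and 1.09 times beside sparse sites. The prediction is capped, since the widest class gives 20.1 footprints for every site in it. Nearest sites reached 6887 bp beside packed sites and 9549 bp beside sparse ones, so these ratios do not fully allow for width. Outside the 5 megabases the nearest site held 7.11 footprints on average (median 4), 1.58 times the 4.50 predicted, and 10 or more in 62 of 261 (23.8%). Over those 261 sites the mean was again higher than for sparse sites on 17 of 20 chromosomes. Footprints in the nearest sites had a median score of -4.66 beside packed sites and -4.40 beside sparse sites, and median widths of 19 and 21 bp. Neighbours thus showed, to a smaller degree, the same shift in number, score and width. Scores and widths were pooled over all footprints of the nearest sites, packed ones included, with no allowance for site width or number. Their shifts need not be separate from the shift in number. The 351 sites with 9 footprints were in between, with 5.77 footprints in the nearest site on average and 10 or more in 20.5%.

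Distance to the nearest site was short in 4 of the 5 megabases, and outside them all it was close to that of sparse sites. It was 2526.5 bp at the median for packed sites (interquartile range 675.5 to 8044 bp), against 3999.5 bp (1163 to 10065 bp) for sparse sites, but was shorter for packed sites on only 12 of 20 chromosomes. In the 5 megabases as a pool it was 480 bp, and 7 other sites lay within 10 kb at the median. By megabase the median was 339 and 488 bp on chromosome 10, 369.5 bp on chromosome 11 and 894 bp on chromosome 2, but 10432 bp on chromosome 7. Elsewhere it was 3449 bp with 1 other site within 10 kb, against 3508 bp and 1 site for sparse sites weighted to the same widths. The nearest site was under 1000 bp away for 94 packed sites (30.1%), against 22.9% of sparse sites and 21.5% of all sites of this width. Outside the 5 megabases it was under 1000 bp for 60 of 261 packed sites, against 25.1% of sparse sites weighted to the same widths.

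Few packed sites had a packed site as their nearest, but the share was above that of sparse sites. The nearest site was itself packed for 10 of 312 (3.21%), of which 7 were in the 5 megabases. It was packed for 0.282% of sparse sites and 0.203% of all sites of 400 to 800 bp. Among packed sites outside the 5 megabases it was packed for 3 of 261 (1.15%). Packed sites that were each other's nearest counted from both sides, which cannot happen for sparse sites. The closest pair outside these megabases was on chromosome 7 from 128060849 to 128062567, 191 bp apart with 13 and 12 footprints. Its first site is the one with a median score of -11.6. A pair on chromosome 5 from 65726572 to 65745952 held 10 footprints each but lay 17800 bp apart.

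**Figure D5:**
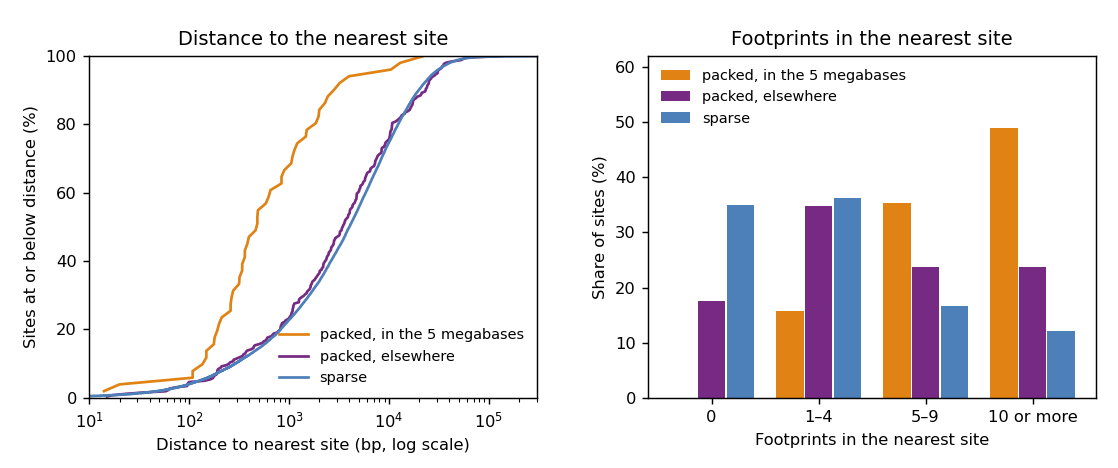
Left, the share of sites (%) whose nearest other site lies at or below each distance in bp (log scale). Right, the share of sites (%) by the number of footprints in the nearest site. Orange is packed sites in the 5 megabases, purple packed sites elsewhere and blue sparse sites. Distances outside the 5 megabases run along those of sparse sites, with medians of 3449 and 3999.5 bp, while the nearest site holds 10 or more footprints in 23.8% against 12.1%.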

How the data were processed

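DNase-treated nuclei of 3T3-L1 cells were sequenced, and per the labels both DNase samples and earlier reads of the same library were combined before sites and footprints were called. The build is mm9 and HOMER is named, per the submitters' processing notes. The sources used here name no version and no footprint caller. The site list gives positions only. The footprint list has a column headed p-value, per the file headers, which was used as the authors' deposited score because every value is negative (highest -3.54) and 496 are -Inf. The list names carry false discovery rates of 0 for sites and 0.01 for footprints and a maximum width of 30 bp, which limits the widths that could be seen. No read depth accompanies the lists, so a footprint may be missing where cuts were few. Positions were taken as BED and starts raised by 1. Overlaps were checked with bedtools 2.31.1. Footprint width, score, gap, distance to the nearest site and its number of footprints were tested on simulated sites of equal width. The distance from the centre and the prediction from width were not tested in this way. The list held 27 pairs of overlapping sites, and 0 packed sites overlapped another site.

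The packed sites and the measures were chosen with earlier results of these data known. The regions named are the 10 packed sites with the most footprints (ties by summed score, then position), 5 each with the largest covered share, the strongest and the weakest median score, and the 5 megabases with the most packed sites. Predictions from width are means over 50 classes of equal size over all sites. With 1 library, no test was run. Python 3.11.15, numpy 2.4.6, pandas 2.3.3, scipy 1.17.1 and matplotlib 3.10.9 were used.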

Additional observations from a re-analysis of the deposited data

How the results depend on the processing

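No paired analysis was possible because all DNase reads came from 1 library and were pooled before calling. Of 58 values under alternatives, 47 stayed within the SD over chromosomes (for the number of packed sites, within 1.5 times, and for the share on chromosome 10, within its Wilson interval), 11 moved and 0 changed sign. Counts and shares cannot change sign, and the rule bears on gap and footprint width and may bear on score, so the 0 was partly fixed in advance. For the distance to the nearest site that SD, 3189 bp, exceeds the difference itself, so staying within it says nothing about stability. For the distance from the centre the SD was 0.0357, so even the fall from 0.0550 to 0.0264 without the 5 megabases counts as staying within it. Requiring 12 or more footprints left 56 of the 68452 sites of 400 to 800 bp as packed. It raised the difference in distance from the centre to 0.102 and that in footprints of the nearest site to 7.60. Merging footprints 2 bp or less apart left 165 packed sites, all of them packed before. Packed sites were then 0.499% and 1.14%, in the same order, of the sites of this width on chromosome 10. In the main run that share was 1.53%, with 312 of the 68452 packed. Both shares were lower, but they fell less steeply than the total, which was 56 and 165 in the same order. Against sites with 5 to 9 footprints the differences were -3 bp in footprint width, -0.37 in score and -5 bp in gap. Weighting sparse sites to packed widths gave a gap difference of -21 bp, and -22 bp also without the 5 megabases, a combination added after the data were seen. Leaving out sites whose nearest site was itself packed, also added after the data were seen, gave a difference of 4.22 footprints in the nearest site, against 4.33 with them. Without the 5 megabases the difference in distance from the centre was 0.0264, against 0.0550 with them, and that in distance to the nearest site was -554.5 bp, or -59 bp when also weighted to packed widths, against -1473 bp.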
